A study of Homo sapiens with 6 samples.

Results

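Human mitochondria carry their own small genome, and its genes were measured here in ME180, an established epithelial cell line from a cervical cancer, after knockdown of the kinase SGK1. The members are all 37 genes that the deposited expression table of 58302 genes places on chromosome MT. By the table's biotype they are 13 mRNA genes, 2 rRNA genes and 22 tRNA genes. Of these, 35 had a mean level high enough for testing, including all mRNA and rRNA genes and 20 tRNA genes. A control group, siControl, received a control small interfering RNA (siRNA), and the other group, siSGK1, received an siRNA against SGK1. RNA was taken 48 h later, with 3 biological repeats per group, numbered 2, 3 and 4. No other treatment or genetic change is named in the labels, both groups were transfected, and a single cell line was used. No source used here gives the siRNA sequences.

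Polyadenylated RNA was sequenced, and levels are FPKM, which are fragments scaled to the length of the gene and to an effective library size. The read counts behind them could be recovered (27262794 to 27874948 reads per siControl library and 28405647 to 35242643 per siSGK1 library). SGK1 itself measured 3.91, 4.27 and 4.17 FPKM in siControl and 1.58, 1.70 and 1.81 FPKM in siSGK1. The groups did not overlap, and the siSGK1 mean was 41.2% of control (log2 change −1.07, SE 0.07, limma adjusted p = 1.88e-05; exact two-sided permutation p = 0.1, the smallest that 3 against 3 libraries allow). All 8 epithelial markers checked had a mean of at least 1 FPKM, with a summed level of 7967 to 8578 FPKM in siControl and 4997 to 5836 FPKM in siSGK1. Keratins carried the lower sum, with KRT14 means of 1388 and 541 FPKM and KRT5 means of 3961 and 2920 FPKM, while the means of CDH1 (43.1 and 43.4 FPKM), TP63 (38.6 and 38.6 FPKM) and EPCAM (36.9 and 36.8 FPKM) were nearly equal. The part of the keratin level in the results below was not tested. For markers of other cell types the mean over all 6 libraries was checked. It was at least 1 FPKM for 0 of 4 leukocyte, 0 of 3 endothelial and 1 of 6 fibroblast genes (COL1A1). The endothelial gene VWF had means of 1.34 FPKM in siControl and 0.53 FPKM in siSGK1.

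The mitochondrial genome is a circle that is transcribed from both strands into long precursors by the polymerase POLRMT. Its mRNAs encode core subunits of the respiratory chain complexes I, III and IV and of the ATP synthase, complex V, while complex II and most other subunits come from nuclear genes. In most places tRNA genes stand between the mRNA and rRNA genes, and cutting out the tRNAs by RNase P and ELAC2 releases the other RNAs. Most of the freed mRNAs then receive short poly(A) tails from MTPAP, and the rRNAs are the scaffold of the mitochondrial ribosome. Because neighbouring genes begin as the same precursor, the levels of mature RNAs also depend on processing and decay.

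The ends of the mRNA genes show how closely the genome is packed. In 6 of the 13 mRNA genes the annotated sequence stops partway through the stop codon, and adding A residues at the tail completes it. The last 24 bases of 8 genes follow, 5′ to 3′, from the GENCODE 29 transcripts of GRCh38, to set incomplete and complete ends side by side. Capitals mark the stop codon letters that the genome holds.
MT-ND1: ctccagcattccccctcaaaccTA
MT-ND2: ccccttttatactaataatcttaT
MT-CO3: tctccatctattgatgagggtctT
MT-CYB: aaaacaaaatactcaaatgggccT
MT-CO2: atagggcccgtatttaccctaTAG
MT-ATP6: ctctacctgcacgacaacacaTAA
MT-CO1: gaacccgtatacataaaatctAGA
MT-ND6: attgagattgctcgggggaatAGG
The first 4 have incomplete stops, and the other 4 are complete. MT-CO1 and MT-ND6 end in AGA and AGG, which the standard code reads as arginine.

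A second feature is overlap. MT-ATP8 and MT-ATP6 share 46 bases (chromosome MT, 8527 to 8572, plus strand), shown here with the start codon of MT-ATP6 and the stop codon of MT-ATP8 in capitals.
MT-ATP8 and MT-ATP6: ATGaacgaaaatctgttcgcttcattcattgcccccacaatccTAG
MT-ND4L and MT-ND4 share 7 bases, and MT-ATP6 and MT-CO3, MT-TC and MT-TY share 1 base each. MT-TI and MT-TQ overlap by 3 bases on opposite strands. How reads over shared bases, reads from the opposite strand or reads with several matches were counted is not stated in any source used here. The levels of overlapping members, and of any member whose opposite strand is transcribed, are uncertain to that extent.

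Among the tRNA genes, most of the reads came from the following 4, all on the minus strand, shown because the tRNA results rest on them, with the anticodon in capitals and T in place of U as in the reference.
MT-TN: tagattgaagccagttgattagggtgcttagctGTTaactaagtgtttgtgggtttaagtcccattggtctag
MT-TC: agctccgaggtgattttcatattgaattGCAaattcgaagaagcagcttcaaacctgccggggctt
MT-TY: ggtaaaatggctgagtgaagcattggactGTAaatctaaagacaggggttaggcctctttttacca
MT-TP: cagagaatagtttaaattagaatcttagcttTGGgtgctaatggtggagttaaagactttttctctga
They carry asparagine (MT-TN), cysteine (MT-TC), tyrosine (MT-TY) and proline (MT-TP).

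The mitochondrial genome supplied a smaller part of the reads after SGK1 knockdown. Its 37 genes held 4.20%, 4.16% and 4.40% of the reads in siControl and 3.47%, 3.38% and 3.66% in siSGK1. The groups did not overlap, and the means were 4.25% ± 0.13 and 3.50% ± 0.14 (SD, n = 3 each; exact two-sided permutation p = 0.1, the smallest possible). The 13 mRNA genes accounted for most of this, with 3.66% ± 0.08 of reads in siControl and 3.06% ± 0.13 in siSGK1. The rRNA genes held 0.532% ± 0.048 and 0.396% ± 0.041, and the tRNA genes 0.0575% ± 0.0012 and 0.0437% ± 0.0016, again without overlap between groups in either class. Among the 50 genes with the most reads, 6 were mitochondrial, and without those 50 the difference in share was smaller. Over reads outside those 50 genes the remaining mitochondrial genes held 1.07% in siControl and 0.863% in siSGK1. In bulk RNA, fewer cells of a kind, fewer mitochondria per cell and less RNA per mitochondrion cannot be told apart.

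All 13 mitochondrial mRNAs fell on the deposited scale, by similar amounts, while quantile normalization turned the sign of 4 of them (MT-ND2, MT-CO3, MT-ND3 and MT-ND6) as given with the other scalings. A gene was called when its adjusted p was below 0.05 in limma's moderated test on log2(FPKM + 0.5), with Benjamini-Hochberg adjustment over the 11945 genes with a mean of at least 1 FPKM. By this rule 13 of 13 mRNA genes were lower in siSGK1 and 0 higher, against a background of 22.7% of tested genes called lower and 17.9% called higher. Each of the 13 was lower in every siSGK1 library than in every siControl library, which held for 28.8% of tested genes. Their log2 changes ran from −0.49 to −0.32 with a median of −0.42, beside a median of −0.006 over all tested genes.

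**Figure D1:**
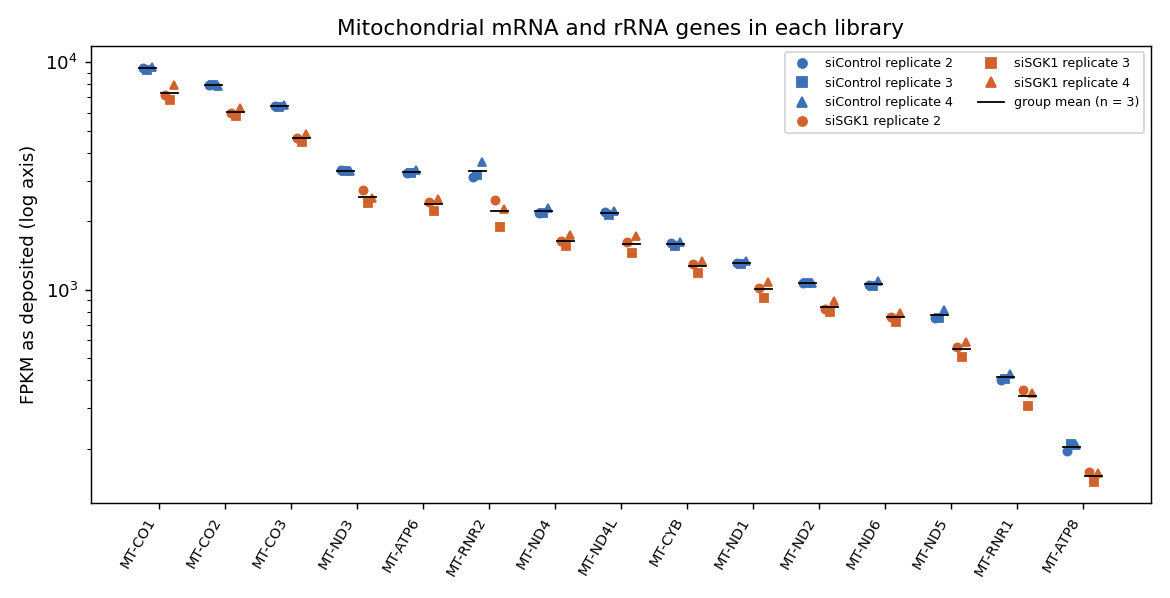
Level of each mitochondrial mRNA and rRNA gene in FPKM (log axis) in the 3 siControl libraries (blue) and the 3 siSGK1 libraries (orange), with group means as black bars, ordered by mean level. No gene has a siSGK1 library above its lowest siControl library, and among siSGK1 libraries replicate 3 is the lowest for all 13 mRNA genes.

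Complex IV, cytochrome c oxidase, takes its catalytic core from MT-CO1, MT-CO2 and MT-CO3, which had the 3 highest mean levels per length of all genes in the table. MT-CO1, the heme and copper subunit (chromosome MT, 5904 to 7445), measured 9454, 9233 and 9554 FPKM in siControl and 7193, 6842 and 7975 FPKM in siSGK1. Its siSGK1 libraries spread more widely than its controls but stayed below all of them, and the mean was 77.9% of control (log2 change −0.36, SE 0.07, adjusted p = 0.0034). MT-CO2, which accepts electrons from cytochrome c (7586 to 8269), measured 7931, 7899 and 7896 FPKM against 6001, 5813 and 6282 FPKM. The 3 control values of MT-CO2 were nearly equal, and its log2 change was −0.39 (SE 0.05, adjusted p = 0.00074). MT-CO3 (9207 to 9990) measured 6439, 6371 and 6496 FPKM against 4619, 4477 and 4834 FPKM, a mean of 72.2% of control (log2 change −0.47, SE 0.05, adjusted p = 0.00027).

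For complex I, NADH dehydrogenase, the mitochondrial genome encodes 7 membrane-arm subunits. MT-ND6 (14149 to 14673) is the only mRNA gene on the minus strand. It measured 1044, 1041 and 1093 FPKM in siControl and 755, 719 and 789 FPKM in siSGK1. It had the largest change of the 13, to 71.2% of control (log2 change −0.49, SE 0.05, adjusted p = 0.00019). How the selection of polyadenylated RNA bears on the MT-ND6 value was not tested. MT-ND5, on the plus strand (12337 to 14148), had a change of the same size. It measured 752, 748 and 809 FPKM against 557, 505 and 588 FPKM (log2 change −0.49, adjusted p = 0.00059). MT-ND4L (10470 to 10766) measured 2196, 2138 and 2209 FPKM against 1616, 1441 and 1724 FPKM, and MT-ND4 (10760 to 12137), which it overlaps, 2161, 2175 and 2281 FPKM against 1635, 1554 and 1739 FPKM. These neighbours had log2 changes of −0.46 and −0.43 (adjusted p = 0.0011 and 0.00060). MT-ND3 (10059 to 10404) measured 3348, 3328 and 3334 FPKM against 2730, 2395 and 2539 FPKM (log2 change −0.39, adjusted p = 0.0012). The remaining subunits, MT-ND1 and MT-ND2, lie near the rRNA genes. MT-ND1 (3307 to 4262) measured 1303, 1301 and 1334 FPKM against 1016, 918 and 1085 FPKM (log2 change −0.39, adjusted p = 0.0019). MT-ND2 (4470 to 5511) measured 1072, 1070 and 1074 FPKM against 817, 795 and 892 FPKM (log2 change −0.36, adjusted p = 0.0010). The 7 complex I members had a median log2 change of −0.43.

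MT-CYB, the cytochrome b of complex III (14747 to 15887), changed least of the mRNAs. It measured 1595, 1561 and 1613 FPKM in siControl and 1297, 1182 and 1338 FPKM in siSGK1, a mean of 80.0% of control (log2 change −0.32, SE 0.06, adjusted p = 0.0025). Its groups still did not overlap.

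Complex V has MT-ATP6, part of the proton channel, and MT-ATP8, a small subunit of the membrane stalk. MT-ATP6 (8527 to 9207) measured 3256, 3259 and 3371 FPKM in siControl and 2419, 2213 and 2513 FPKM in siSGK1 (log2 change −0.47, SE 0.06, adjusted p = 0.00048). MT-ATP8 (8366 to 8572) measured 194, 210 and 207 FPKM against 157, 143 and 157 FPKM (log2 change −0.42, SE 0.05, adjusted p = 0.00050). Both fell by close to the same factor. Their levels per length differed widely, with means of 3295 and 203.8 FPKM in siControl, although they are known to share a transcript. Part of the MT-ATP8 gene lies in the 46 shared bases printed above, and the part played by the counting of those reads was not tested.

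Genes with a complete stop codon and genes with an incomplete one changed over overlapping ranges. The 7 complete genes had log2 changes of −0.49 to −0.36 (median −0.46) and the 6 incomplete ones −0.47 to −0.32 (median −0.39). This split is a description, since the genes share precursors and are not independent.

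**Figure D2:**
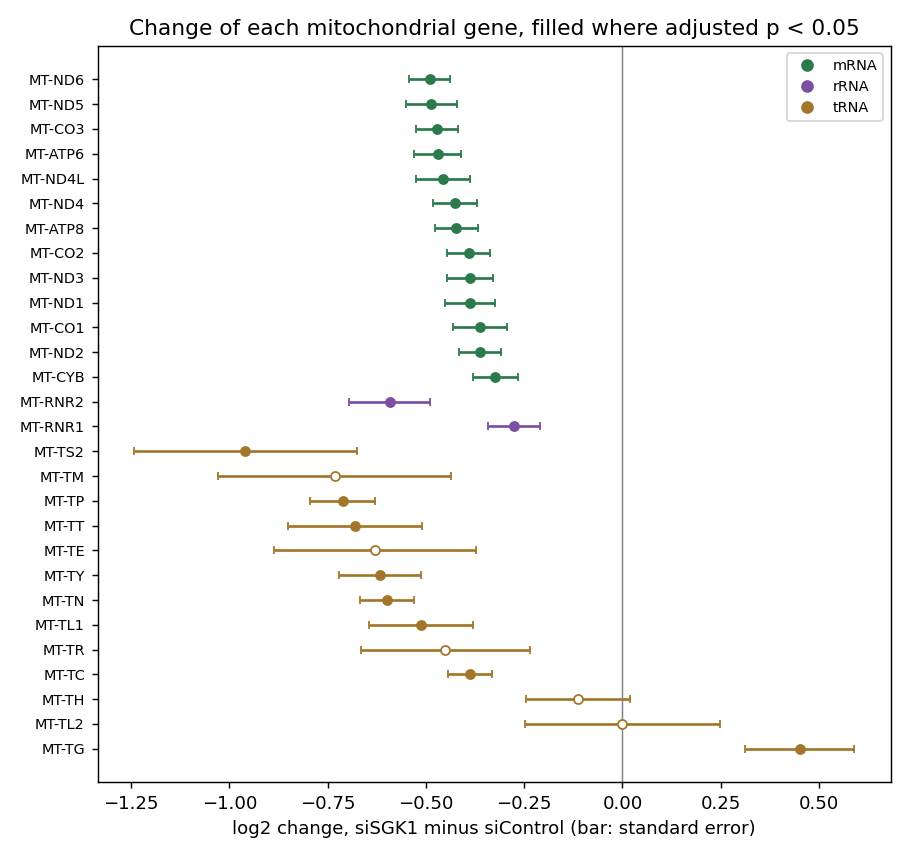
Log2 change from siControl to siSGK1 with its standard error for the mRNA and rRNA genes and for the tRNA genes with a mean of at least 10 reads, ordered within each class and filled where the adjusted p was below 0.05. On this deposited scale the mRNA genes lie within −0.49 to −0.32, while the tRNA genes spread from −0.96 to 0.45 with wider errors.

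The level of a gene and its change were related across the table, and the mitochondrial mRNAs sit at the top of the range. Of the 469 tested genes with a mean of at least 100 FPKM, a level chosen after the values were seen, 61.2% were called lower and 10.2% higher, with a median log2 change of −0.23. The mRNA genes, all above that level, had 13 of 13 called lower and a median of −0.42. Across all tested genes Spearman's rho between mean log2 level and log2 change was −0.16, given as a description over genes that share the same 6 libraries. Chromosomes 1 to 22 and X had median log2 changes between −0.061 and 0.039 and shares of genes called lower between 15.1% and 27.5%.

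**Figure D3:**
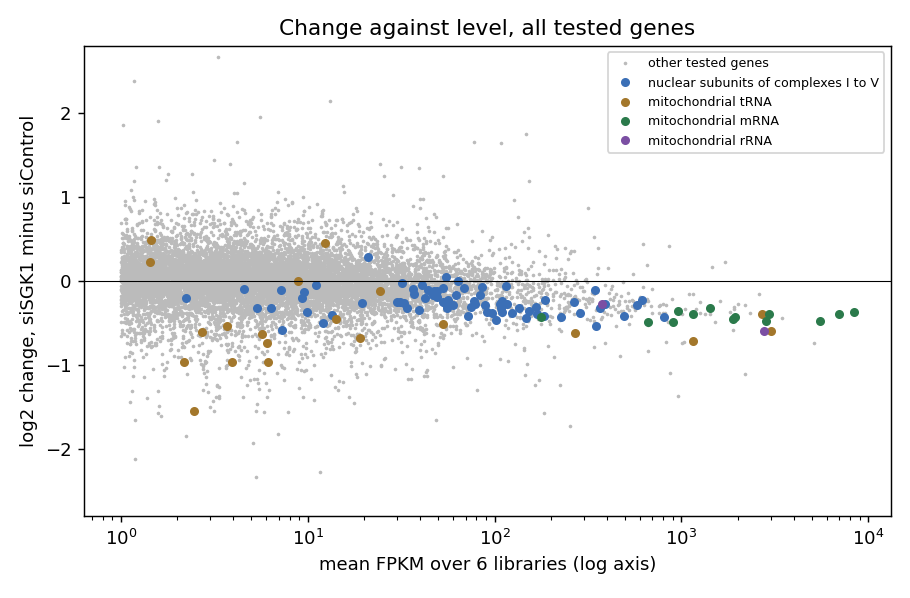
Log2 change from siControl to siSGK1 against mean FPKM (log axis) for all tested genes, with mitochondrial genes and the nuclear subunits of complexes I to V in colour. The mRNA genes lie at the far right among abundant genes whose median change, −0.23 for genes of at least 100 FPKM, is itself below 0.

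The size of the fall depended on how libraries were put on a common scale, and most of the calls were lost under quantile normalization. The deposited FPKM already contain size factors that hold the typical gene constant. Scaling by total reads gave a median mRNA log2 change of −0.28 and 13 of 13 lower calls, with all tested genes shifted to a median of 0.12 and 12.9% of them called lower and 36.1% higher. Scaling to TPM, in which the length-scaled values of every library sum to the same total, gave −0.22 and 13 of 13 lower calls, with all genes at 0.18 and 9.8% called lower and 47.2% higher. Scaling by reads outside the mitochondrial genome gave −0.29 and 13 of 13 lower calls, with all genes at 0.11. Of the 11945 tested genes, 1611 were called lower and 4091 higher under that scaling. The mRNA median minus the median of all tested genes was −0.42 as deposited and −0.40, −0.39 and −0.40 under these scalings. Among called genes, the percentage with a rise moved from 44.2% as deposited to 73.6%, 82.8% and 71.7% under these 3 scalings. Without the filter on level, 7 of the 13 were called, and MT-CO1, MT-CO2, MT-CO3, MT-ND3, MT-ATP6 and MT-CYB were not (adjusted p = 0.050 to 0.36). Over the whole table that fit called 2090 genes lower and 1674 higher.

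Quantile normalization forces the same distribution of values on every library, which fixes the values of the most abundant genes. MT-CO1 and MT-CO2 ranked 1 and 2 in every library and therefore have a change of 0 by construction. With it, 3 mRNA genes were called lower (MT-ATP8 at −0.26, MT-ND5 at −0.22 and MT-ND4L at −0.14), beside 19.9% of all tested genes called lower and 20.9% called higher. MT-ND2 was called higher (log2 change 0.15, adjusted p = 0.013), and MT-CO3, MT-ND3 and MT-ND6 had values of 0.05, 0.09 and 0.04 that were not called. The 3 called genes and MT-ND2 were all below control under every other scaling run.

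**Figure D4:**
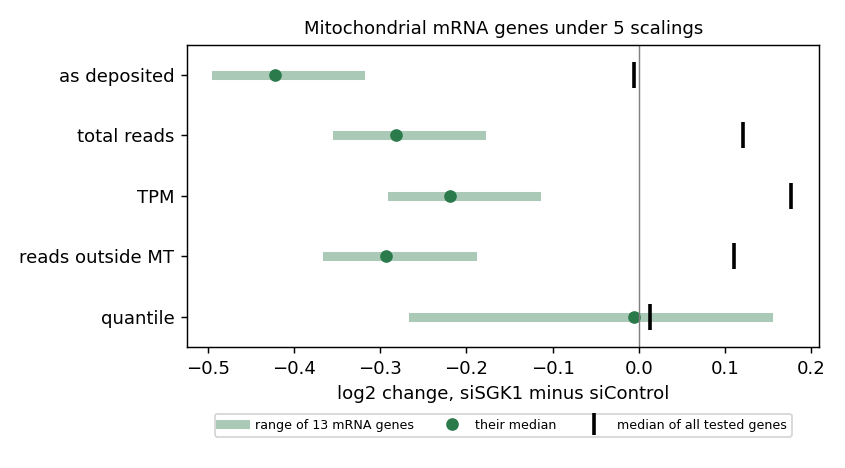
Range (bar) and median (dot) of the log2 changes of the 13 mitochondrial mRNA genes under 5 scalings of the libraries, with the median of all tested genes as a black tick. The distance between dot and tick is similar for the first 4 scalings and nearly vanishes under quantile normalization.

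Measured against each other, no mRNA passed the test. When each library was divided by its summed FPKM over the 13 mRNA genes, limma called 0 of 13, with log2 changes of −0.08 to 0.09 and 0 at an unadjusted p under 0.05. On this scale 4.02% of all tested genes were called lower and 74.7% higher. With so many genes called, the Benjamini-Hochberg adjustment is weak, and adjusted p-values on this scale lie close to unadjusted ones. The smallest adjusted p among the mRNAs was 0.067, for MT-CYB (log2 change 0.09), and with the geometric mean of the 13 genes as the reference MT-CYB alone was called (0.09, adjusted p = 0.040). As a share of the summed mRNA level, MT-CYB held 3.91%, 3.87% and 3.91% in siControl and 4.21%, 4.07% and 4.12% in siSGK1. MT-CO1 held 23.2%, 22.9% and 23.1% against 23.3%, 23.6% and 24.6%, and MT-CO3 held 15.8%, 15.8% and 15.7% against 14.99%, 15.4% and 14.9%. In shares, 7 of the 13 had no overlap between groups: MT-CO1, MT-CYB and MT-ND2 were higher in every siSGK1 library, and MT-CO3, MT-ATP6, MT-ND5 and MT-ND6 lower. On the same scale 76.6% of all tested genes were higher in every siSGK1 library and 4.47% lower. Since the shares sum to a fixed total, a higher share of some members goes with a lower share of others.

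Both rRNAs fell, with a larger value for MT-RNR2, and the difference between them was not tested directly. MT-RNR2, the 16S rRNA of the large ribosomal subunit (chromosome MT, 1671 to 3229), measured 3122, 3184 and 3634 FPKM in siControl and 2468, 1882 and 2270 FPKM in siSGK1. Its groups did not overlap, and siSGK1 replicate 3 was the lowest (log2 change −0.59, SE 0.10, adjusted p = 0.0023). MT-RNR1, the 12S rRNA of the small subunit (648 to 1601), measured 401, 404 and 427 FPKM against 362, 307 and 351 FPKM (log2 change −0.28, SE 0.07, adjusted p = 0.010). Under TPM scaling MT-RNR1 was no longer called (log2 change −0.07, adjusted p = 0.21), and under quantile normalization neither was (−0.03 and −0.13, adjusted p = 0.65 and 0.11). The pair lie side by side in the same precursor, with only MT-TV between them.

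Against the mRNA total the pair moved in opposite directions. MT-RNR1 was higher by 0.13 log2 units (adjusted p = 0.031) and MT-RNR2 lower by a log2 change of −0.18 (adjusted p = 0.045). With 4.02% of all tested genes called lower and 74.7% higher on this scale, these adjusted p-values lie close to unadjusted ones. Neither call was stable: the adjusted p of MT-RNR1 was 0.11 without siControl replicate 2, 0.077 without siControl replicate 3 and 0.10 without siSGK1 replicate 2. That of MT-RNR2 was 0.18 without siControl replicate 4, 0.21 without siSGK1 replicate 3 and 0.11 without siSGK1 replicate 4. As a percentage of mRNA reads, the rRNA reads came to 13.7, 14.2 and 15.7 with siControl and to 14.5, 11.8 and 12.5 with siSGK1, which overlap. Mitochondrial rRNAs carry only short A tails, so the selection of polyadenylated RNA bears on how many of them are captured. Of 12 nuclear RNAs without poly(A) tails found in the table, only RN7SL2, a signal recognition particle RNA, was abundant enough to test. It measured 2531, 3053 and 2630 FPKM against 2279, 2646 and 2448 FPKM, which overlap (log2 change −0.15, adjusted p = 0.18). Its value was 0.05 under TPM scaling (adjusted p = 0.63) and 0.28 after quantile normalization, where it was called higher (adjusted p = 0.047). RN7SL2 has a near-identical copy, RN7SL1, listed at 0 in every library, so its value is uncertain, and the part of tail selection in the rRNA changes was not tested. Without the filter on level MT-RNR1 and MT-RNR2 were not called (adjusted p = 0.068 and 0.058).

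The tRNA genes were very unequal in signal. MT-TN, MT-TC, MT-TP and MT-TY, whose sequences are printed above, held 97.0% to 98.0% of all tRNA reads in each library, with means of 519.7 to 6415 reads. The other 18 genes had means of 0.5 to 116.7 reads. All 4 are on the minus strand, as are 4 others of the 22 (MT-TA, MT-TS1, MT-TQ and MT-TE) that had few reads, so genes of the same strand differed widely in reads. MT-TN, MT-TC and MT-TY are neighbours (5657 to 5891), and MT-TP (15956 to 16023) lies elsewhere, next to the control region.

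**Figure D5:**
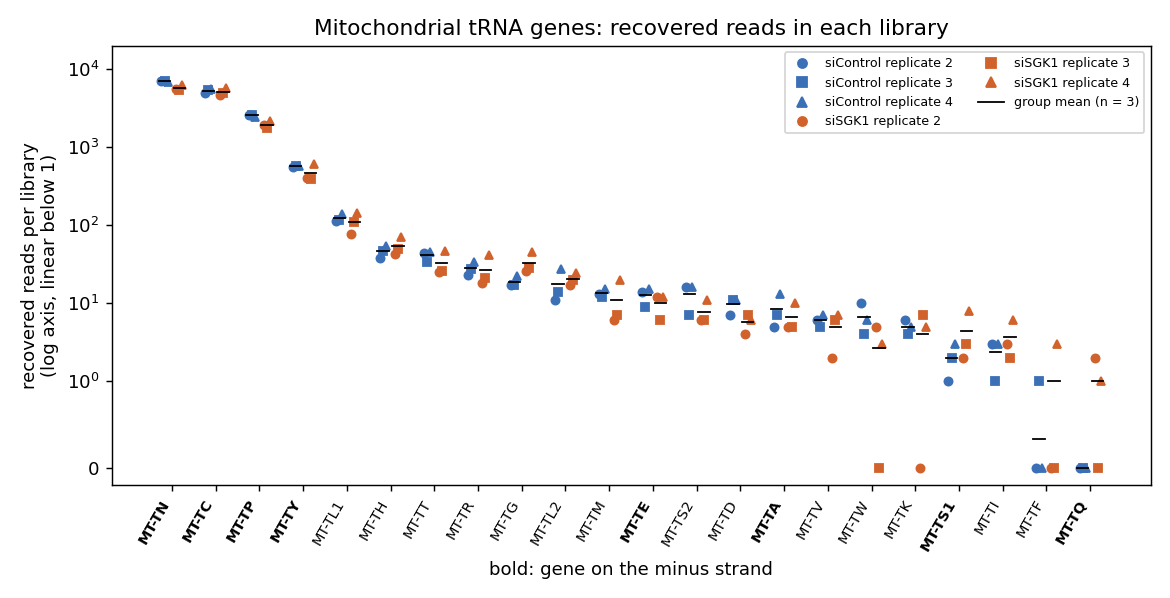
Recovered reads per library (log axis, linear below 1) for the 22 mitochondrial tRNA genes, ordered by mean, with siControl in blue, siSGK1 in orange, group means as black bars and minus-strand genes in bold. Reads are not scaled for library size; 4 genes stand above all others, and 9 genes have means under 10 reads.

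The levels of these 4 tRNA genes all fell on the deposited scale. Polyadenylated RNA was selected, and how far their reads come from mature tRNAs or from uncut precursors was not tested. MT-TN measured 3650, 3799 and 3503 FPKM in siControl and 2628, 2241 and 2375 FPKM in siSGK1 (log2 change −0.60, SE 0.07, adjusted p = 0.00029). MT-TP measured 1475, 1452 and 1354 FPKM against 976, 775 and 872 FPKM, to 61.3% of control (log2 change −0.71, SE 0.08, adjusted p = 0.00030). MT-TY measured 319, 338 and 322 FPKM against 211, 180 and 253 FPKM (log2 change −0.62, SE 0.10, adjusted p = 0.0021). None of the 3 overlapped between groups, and their values were still called lower after quantile normalization (log2 changes of −0.12, −0.34 and −0.43). MT-TC, which shares 1 base with MT-TY, had a smaller change. It measured 2897, 3143 and 3138 FPKM against 2395, 2247 and 2372 FPKM (log2 change −0.39, SE 0.06, adjusted p = 0.00091), and 0.05 under quantile normalization, where it was not called, nor was it without the filter on level (adjusted p = 0.078).

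Relative to the mRNA total, MT-TP was lower by a log2 change of −0.30 (adjusted p = 0.0022). It remained called without any single library, with adjusted p-values of 0.00023 to 0.016. MT-TN and MT-TY were lower by −0.19 and −0.21 (adjusted p = 0.015 and 0.022). The call of MT-TN was lost without siSGK1 replicate 3 or 4 (adjusted p = 0.056 and 0.060), and that of MT-TY without siControl replicate 3, siSGK1 replicate 2 or siSGK1 replicate 3 (0.063, 0.051 and 0.10). MT-TC had a value of 0.02 relative to the mRNA total (adjusted p = 0.70). With 4.02% of all tested genes called lower and 74.7% higher on this scale, these adjusted p-values too lie close to unadjusted ones.

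The other tRNA genes rest on few reads. Of the 20 tested tRNA genes, 8 were called lower and 1 higher, and this includes the 4 above. All tested genes had 22.7% lower and 17.9% higher calls. The test weighs a gene by its FPKM, and a short gene reaches a given FPKM with far fewer reads than a long one, so the p-values of these genes are likely too small. A test that weighs by reads (limma's voom) called 9 tRNA genes lower and 0 higher, with 0 higher at an unadjusted p under 0.05, beside 24.9% of all tested genes lower and 20.2% higher. MT-TL1, the leucine tRNA that follows MT-RNR2, had 113, 118 and 138 reads in siControl and 77, 109 and 145 in siSGK1. The read numbers overlap, but after scaling its FPKM of 57.4, 60.6 and 68.2 lay above 34.9, 43.9 and 52.8 (log2 change −0.51, SE 0.13, adjusted p = 0.015). MT-TT, for threonine, measured 25.4, 19.9 and 25.3 FPKM against 12.9, 11.9 and 19.4 FPKM (log2 change −0.68, adjusted p = 0.013; voom adjusted p = 0.029). MT-TS2, for serine, measured 10.3, 4.57 and 10.1 FPKM against 3.46, 3.07 and 5.09 FPKM, with overlap (log2 change −0.96, adjusted p = 0.026). MT-TL1 lost its call without siControl replicate 4 (adjusted p = 0.052), MT-TT without siSGK1 replicate 3 (0.053), and MT-TS2 without siControl replicate 2 or 4 or siSGK1 replicate 2 or 3 (0.058 to 0.10). Without the filter on level none of the 3 was called (0.094, 0.089 and 0.15), nor was MT-TL1 under TPM scaling (0.082).

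MT-TG, for glycine, was the only member called higher by limma on the deposited scale with all 6 libraries. It lies between MT-CO3 and MT-ND3 (9991 to 10058, plus strand) with no base between them, and its sequence, anticodon in capitals, is shown because it moved against its neighbours.
MT-TG: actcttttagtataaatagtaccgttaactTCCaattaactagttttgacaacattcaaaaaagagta
It had 17, 17 and 22 reads in siControl and 26, 28 and 45 reads in siSGK1, which is 9.53, 9.64 and 12 FPKM against 13, 12.4 and 18.1 FPKM. The groups did not overlap (log2 change 0.45, SE 0.14, adjusted p = 0.031). It was not called by voom (adjusted p = 0.18), without the filter on level (0.15), or without siControl replicate 2 or 3 or siSGK1 replicate 4 (0.059 to 0.092). Relative to the mRNA total its log2 change was 0.84 (adjusted p = 7.7e-05), and it was called there without any single library (0.72 to 0.94). On that relative scale 6 of the 20 tested tRNA genes were lower and 3 higher. Of all tested genes, 4.02% were called lower and 74.7% higher on it, so most of the table was higher there. The other two higher were MT-TH, described next, and MT-TS1 (0.77, adjusted p = 0.036), which had 1, 2 and 3 reads against 2, 3 and 8 and is named because its value was seen. As deposited, the genes that flank MT-TG, namely MT-CO3 and MT-ND3, fell by 0.47 and 0.39 on the log2 scale.

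The remaining named tRNA genes did not pass the test with all 6 libraries. MT-TH (histidine) measured 21.0, 26.3 and 29 FPKM against 21.2, 21.4 and 27.7 FPKM, and MT-TL2 (leucine) 5.90, 7.60 and 14.1 FPKM against 8.14, 8.50 and 9.23 FPKM. The groups overlap in both, and the sign of the change depends on scaling: MT-TH had −0.11 as deposited and 0.09 under TPM, and MT-TL2 −0.0005 and 0.19. Relative to the mRNA total MT-TH was higher by 0.29 (adjusted p = 0.032), a call lost without siControl replicate 2, siSGK1 replicate 3 or siSGK1 replicate 4 (0.13, 0.068 and 0.13). MT-TL2 was called higher without siControl replicate 4 (log2 change 0.34, adjusted p = 0.039). MT-TR (arginine) measured 13.5, 16.0 and 19.4 FPKM against 9.42, 9.75 and 17.2 FPKM (log2 change −0.45, adjusted p = 0.13). MT-TM (methionine) measured 7.29, 6.80 and 8.18 FPKM against 3.0, 3.11 and 8.03 FPKM (−0.73, adjusted p = 0.080). MT-TE (glutamate) measured 7.73, 5.03 and 8.06 FPKM against 5.91, 2.63 and 4.75 FPKM (−0.63, adjusted p = 0.082). In MT-TM a single siSGK1 library, replicate 4, reached the control level. Without siSGK1 replicate 4, MT-TR (−0.72, adjusted p = 0.0047) and MT-TM (−1.15, adjusted p = 0.00013) were called lower. MT-TE was called lower without siControl replicate 3 or siSGK1 replicate 2 (adjusted p = 0.038 and 0.024). With a filter at a mean of 5 FPKM, MT-TM and MT-TE were called too (0.037 and 0.039). Of the 9 tRNA genes with a mean under 10 reads, limma called MT-TD (aspartate) lower. It is named because its value was seen. It had 7, 11 and 11 reads against 4, 7 and 6 (log2 change −0.96, adjusted p = 0.0031; voom adjusted p = 0.037). MT-TW (tryptophan), another of the 9, is named for the same reason. It had 10, 4 and 6 reads against 5, 0 and 3, and its groups overlap. Limma did not call MT-TW (log2 change −1.55, adjusted p = 0.061), while voom called it lower (−2.01, adjusted p = 0.014). Relative to the mRNA total limma called it lower (−1.28, adjusted p = 0.048). MT-TF and MT-TQ were not tested, with at most 3 and 2 reads in any library.

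Nuclear chromosomes carry old copies of mitochondrial DNA, and reads from near-identical copies can be assigned to either place. The table lists 405 nuclear copies of mitochondrial genes, counted as pseudogenes together with the 13 MTRNR2L genes described under other observations. Of these, 51 had at least 1 read and 3 had a mean of at least 1 FPKM, all on chromosome 1. MTATP6P1 (633696 to 634376) is 98.5% identical to MT-ATP6 in the GENCODE 29 transcripts and measured 237, 217 and 226 FPKM against 171, 146 and 171 FPKM (log2 change −0.48, adjusted p = 0.00088). MTND2P28 (629640 to 630683), 98.2% identical to MT-ND2, measured 92.0, 76.3 and 83.2 FPKM against 61.8, 51.7 and 61.3 FPKM (−0.52, adjusted p = 0.0019). MTCO1P12 (631074 to 632616), 98.6% identical to MT-CO1, measured 46.8, 38.0 and 39.6 FPKM against 32.7, 27.5 and 31.2 FPKM (−0.44, adjusted p = 0.0049). All 3 moved in the direction of their mitochondrial counterparts, and relative to the mRNA total none of them was called (adjusted p = 0.24, 0.15 and 0.70). In siControl the mean levels were 226.4, 83.8 and 41.5 FPKM, beside 3295, 1072 and 9414 FPKM for MT-ATP6, MT-ND2 and MT-CO1. The part of reads shared between a copy and its source was not tested.

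Among the nuclear genes that copy and transcribe mitochondrial DNA, none was called lower by limma. Of 16 tested members, limma called 0 lower and 2 higher, beside 22.7% and 17.9% of all tested genes. Voom called 0 and 4, beside 24.9% and 20.2%. By limma 1 was lower at an unadjusted p under 0.05, and the median log2 change was 0.085. TFB1M, a methyltransferase of the 12S rRNA related to the transcription factor TFB2M, measured 3.56 ± 0.23 FPKM with siControl and 4.31 ± 0.33 FPKM with siSGK1 (SD, n = 3 each; log2 change 0.24, adjusted p = 0.026). TEFM, the mitochondrial transcription elongation factor, measured 2.29 ± 0.32 and 2.87 ± 0.13 FPKM (0.28, adjusted p = 0.038). TOP1MT, the mitochondrial topoisomerase, was not called (0.16, adjusted p = 0.061). Without the filter on level TFB1M and TEFM were not called (adjusted p = 0.60 and 0.62). Under TPM scaling 11 of the 16 were called higher, beside 47.2% of all tested genes.

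Genes that process, stabilise or degrade mitochondrial RNA were mixed. Of 27 tested genes, 6 were lower and 1 higher, with a median of −0.04. The lower share was close to the 22.7% of all tested genes called lower, and 17.9% of all tested genes were called higher. TBRG4 (FASTKD4), which stabilises several mitochondrial mRNAs, fell from 25.2 ± 0.5 to 20.1 ± 1.7 FPKM (−0.32, adjusted p = 0.0042). HSD17B10, a dehydrogenase that is also a subunit of mitochondrial RNase P, fell from 266.6 ± 14.2 to 210.4 ± 17.3 FPKM (−0.34, adjusted p = 0.0044). REXO2, which degrades short RNA fragments, fell from 10.3 ± 0.02 to 8.78 ± 0.39 FPKM (−0.22, adjusted p = 0.0072). Under TPM scaling the list had 1 lower and 13 higher calls, beside 9.8% and 47.2% of all tested genes.

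Of 13 genes listed with the mitochondrial translation factors, limma called 1 lower and 0 higher, beside 22.7% and 17.9% of all tested genes. Voom called 2 lower and 0 higher, beside 24.9% and 20.2%, and TPM scaling gave 1 lower and 6 higher, beside 9.8% and 47.2%. The 1 called by limma was OXA1L, which is not itself a translation factor but inserts newly made subunits into the inner membrane. It fell from 65.7 ± 0.3 to 52.4 ± 2.2 FPKM (−0.33, adjusted p = 0.00071). MRRF, the ribosome recycling factor, and TUFM, the elongation factor, had log2 changes of −0.12 and −0.15 (adjusted p = 0.078 and 0.11). Among 8 tested regulators of mitochondrial biogenesis, 3 were lower and 2 higher, with a median of 0.036, beside 22.7% and 17.9% of all tested genes. Scaling by total reads gave 2 lower and 5 higher among the 8, beside 12.9% and 36.1% of all tested genes. TPM scaling gave 1 and 5 (median 0.23), beside 9.8% and 47.2%. The 3 called lower on the deposited scale were the coactivator PPARGC1B (2.93 ± 0.13 to 2.17 ± 0.05 FPKM, −0.36, adjusted p = 0.0024), the nuclear receptor ESRRA (96.8 ± 1.9 to 77.0 ± 6.5 FPKM, −0.33, adjusted p = 0.0034) and the transcription factor GABPA (2.99 ± 0.40 to 2.2 ± 0.24 FPKM, −0.37, adjusted p = 0.019).

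Most nuclear subunits of the same respiratory complexes were lower too on the deposited scale, to which the medians set side by side below belong. Of 75 tested nuclear subunits of complexes I to V, 55 were lower and 1 was higher, with a median of −0.26. All tested genes had 22.7% lower and 17.9% higher calls. In complex IV 11 of 11 were lower (median −0.35, beside −0.39 for its mitochondrial members), led by COX5B (411.6 ± 6.3 to 282.9 ± 9.4 FPKM, −0.54), COX7B (−0.47) and COX4I1 (−0.39). In complex III 9 of 9 were lower (median −0.38, beside −0.32 for MT-CYB), including UQCRH (−0.41), CYC1, the cytochrome c1 (−0.43), and UQCRQ (−0.38). Complex V had 10 of 17 lower by limma and 11 by voom, with 0 higher in both, also at an unadjusted p under 0.05, and 3 lower and 3 higher under TPM scaling (median −0.25, beside −0.45), with ATP5B, the catalytic beta subunit, falling from 931.3 ± 12.1 to 691.5 ± 23.8 FPKM (−0.43), ATP5G3 (−0.41) and ATP5G1 (−0.37). Complex I had 22 of 34 lower and 1 higher (median −0.21, beside −0.43), including NDUFS1 (8.89 ± 0.38 to 5.76 ± 0.32 FPKM, −0.59), NDUFB4 (−0.38) and NDUFB9 (−0.37). Complex II, which has no mitochondrially encoded subunit, had 3 of 4 lower (median −0.21), namely SDHB (−0.35), SDHD (−0.26) and SDHA (−0.16, adjusted p = 0.034). Among the nuclear subunits named here, SDHA had the largest adjusted p. Many of these subunits are abundant, so the share of 61.2% called lower among genes of at least 100 FPKM stands beside these counts. With total-read scaling 38 of the 75 were lower and 3 higher (median −0.12), beside 12.9% and 36.1% of all tested genes. Under TPM scaling the counts were 23 and 8 (median −0.06), beside 9.8% and 47.2%. After quantile normalization they were 42 and 2 (median −0.15), beside 19.9% and 20.9%.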

How the data were processed

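Polyadenylated RNA of 6 ME180 libraries (3 siControl, 3 siSGK1) was sequenced, and the authors deposited FPKM per gene and library without pooling. Per the submitters' processing notes, bcl2fastq 2.19, HISAT2 2.0.5 and featureCounts 1.5.0-p3 were used with the build hg19. The table's coordinates were those of GRCh38 for 56604 of 58039 identifiers shared with GENCODE 29 (37 of 37 mitochondrial genes), so positions here are GRCh38. Multiplied by gene length, 100% of the deposited FPKM came out as whole multiples of a library's smallest step (tolerance 0.001), which gave the reads. The implied library sizes were 0.952 to 0.967 times the total in siControl and 1.04 to 1.09 in siSGK1, equal to median-of-ratios size factors over 19967 genes.

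The test was limma 3.58.1 (R 4.3.3), two-sided, on log2(FPKM + 0.5), with trended empirical Bayes moderation, over 11945 genes with mean FPKM of at least 1; folds of low genes are understated on this scale. It called 4852 genes (2143 higher, 2709 lower), and 5868 had an unadjusted p under 0.05. The members, gene lists and tests were chosen with earlier results of these data known. Named are all mRNA and rRNA genes, tRNA genes with a mean of at least 10 reads, up to 3 genes per list with the smallest p, and copies of at least 1 FPKM; of 162 listed nuclear genes 161 were found. P-values measure the spread between 3 biological repeats. Sequences were handled with Python 3.11.15 and Biopython 1.88. Same-numbered libraries are not stated to be paired.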

Additional observations from a re-analysis of the deposited data

How the results depend on the processing

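The scaling of libraries mattered most. With quantile normalization 3 mitochondrial mRNA genes were called lower and 1 higher (MT-ND2), against 13 lower. All tested genes had 19.9% lower and 20.9% higher calls with it. The log2 changes of MT-CO3, MT-ND3, MT-ND2, MT-ND6 and MT-TC were 0.052, 0.092, 0.15, 0.038 and 0.051, where MT-CO1 and MT-CO2 are 0 by construction. MT-TH, not called, had 0.025 with total reads, 0.087 with TPM and 0.014 with reads outside the mitochondrial genome. MT-TL2, not called either, had 0.0034 with a pseudocount of 0.1, and 0.13, 0.19, 0.12 and 0.012 with total reads, TPM, reads outside the mitochondrial genome and quantile normalization. Without the level filter 7 mRNA genes and 4 rRNA and tRNA genes were called lower, against 13 and 10, and the cause was not tested. Over every gene with at least 1 read that fit called 2090 genes lower and 1674 higher. The main fit called 2709 and 2143 over fewer genes, so these counts have unlike totals. Leaving out each library in turn kept 13 of 13 mRNA calls and gave 8 to 12 lower calls among rRNA and tRNA genes. In these fits 2095 to 2506 of the 11945 tested genes were called lower. The difference in mitochondrial share moved to between −0.83 and −0.68 percentage points, and MT-TL2 to between −0.26 and 0.34. The count of members that differed relative to the mRNA total moved from 11 to between 5 (without siSGK1 replicate 3) and 10, with 7 without siControl replicate 2. With all 6 libraries 4.02% of all tested genes were lower and 74.7% higher on that relative scale. SGK1 kept its call in 15 of 15 alternatives (log2 change −1.28 to −0.90).

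Same-numbered libraries deviated together with correlations of 0.116, 0.014 and −0.103, and not every library correlated best with its own number. A fit with the replicate number as a block called 13 mRNA genes and 16 rRNA and tRNA genes lower. MT-TR, MT-TM and MT-TE were among those lower (adjusted p = 0.0049, 0.012 and 0.00083), and 2 were higher (MT-TG and MT-TS1). Over all tested genes the block fit called 2549 lower and 2011 higher, against 2709 and 2143 in the main fit. Depth limits the tRNA results: 9 of 22 genes had under 10 reads on average.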

Other observations

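The nuclear genome also holds short copies of the mitochondrial 16S rRNA gene that carry the reading frame of the peptide humanin, named MTRNR2L. Of 13 such genes in the table, 8 had 0 reads in every library. The highest value of any of them was 11 reads in a library, and their summed reads ranged from 7 to 18 per library, beside 97186 to 152724 reads of MT-RNR2.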
